A study of Danio rerio with 6 samples.

Results

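The genes described here encode the subunits, activators, inhibitor and assembly factors of the proteasome in zebrafish (Danio rerio). They were taken as every row of the deposited count table whose symbol begins with psm, a letter from a to g and a digit, with repeated symbols counted once. This gave 52 of 14612 genes, of which 20 are core genes (psma and psmb), 23 are cap genes (psmc and psmd) and 9 are others (psme, psmf, psmg and psmc3ip, which encodes a partner of the Psmc3 protein and no subunit). All 52 carry an NCBI gene number that is still in use, and 5 have since been renamed. The samples were pools of 33 to 35 whole embryos at 7 days post fertilization. In the nucleotide group 3 pools were kept in embryo medium with dissolved nucleotides at 10 µM, and in the control group 3 pools were kept in embryo medium alone. The labels name neither the nucleotides nor a strain, and the headers of the exposed columns read carbon monoxide, so the agent is given as the labels have it.

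The proteasome is the protease that breaks down proteins tagged with ubiquitin in the cytosol and nucleus. Its 20S core is a barrel of outer alpha rings and inner beta rings, and 3 kinds of beta subunit in it cut peptide bonds. A 19S cap sits on the end of the barrel: its base holds a ring of ATPases that unfold the substrate, and its lid removes the ubiquitin chain. Vertebrates also have beta subunits that replace the usual catalytic ones in immune cells and in the thymus. The roles given below are those known from yeast and mammals.

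The nucleotide libraries held 25792829 to 31556366 counts and the control libraries 18690465 to 23066970. Proteasome genes together took 126911 to 142919 of the counts in nucleotide libraries and 96821 to 107828 in control libraries. Levels are given as CPM, the count of a gene scaled to a library of 1000000 counts after correction by TMM (trimmed mean of M values) factors. On that scale the 50 tested proteasome genes summed to 4836 ± 353 CPM in nucleotide and 4705 ± 274 CPM in control libraries (SD, n = 3 each).

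Of 22 tested cap genes 14 had a higher fitted level in the nucleotide pools than in the control pools, as had 8 of 19 tested core genes. With the immune and thymic type left out, 7 of 15 core genes were higher. Among all tested genes 6326 of 13336 were higher. The changes were small: in the genes that passed any of the tests below, the nucleotide level was between 0.693 times (psma1) and 1.47 times (psma2) the control level. In the edgeR quasi-likelihood test without the replicate number, 0 of 50 tested proteasome genes passed an adjusted p of 0.05, against 0.99% of all 13336 tested genes (0.937% higher and 0.0525% lower). At an unadjusted p under 0.05 9 were higher and 4 lower, while 14.5% of all genes passed that threshold. DESeq2 called 4 of 49 with an adjusted value, namely psma2, psmc5 and psmd11b higher and psma1 lower, against 3.79% of all genes (3.05% higher). The authors' deposited table gives the same 4 genes an adjusted p under 0.05 out of 45 with a value, against 4.12% of all genes in it. The authors also used DESeq2 on these same 6 libraries, so the shared calls are no independent support. In the authors' deposited table the log2 fold changes are 0.48 for psma2, 0.34 for psmc5, 0.38 for psmd11b and -0.47 for psma1. In the same order the DESeq2 run made here gave 0.56, 0.37, 0.43 and -0.53, each larger in size.

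Libraries of the same number in the 2 groups deviated together, so the comparison was also fitted with the replicate number as a block, which compares each nucleotide pool with the control pool of its number. With the block 12 proteasome genes rose and 4 fell, where 10.7% of all tested genes rose and 8.38% fell. These shares are not like for like, since a gene with a smaller SE passes at a smaller change. The median SE with the block was 0.0691 over the tested proteasome genes and 0.0882 over all tested genes. The median size of the log2 fold change without the block was similar, at 0.167 and 0.152. Among the 22 cap genes 9 rose and 1 fell, leaving 12 that did not pass. Among the 19 core genes 2 rose and 3 fell, leaving 14 that did not pass. The words rose and fell below refer to this blocked fit, and none of the genes so described passed in edgeR without it. Unless stated otherwise, a log2 fold change given below with an adjusted p is from the blocked fit. One given without an adjusted p is from the fit without the block. The median log2 fold change was 0.14 over the cap genes, -0.03 over the core genes and -0.01 over all tested genes. Without control library 2 the median of the core was 0.15 and that of the cap 0.21. That core median was the value of psmb11, a gene with few counts that had -0.54 with all libraries. Scaled by library totals alone, the medians were 0.02 over the cap, -0.16 over the core and -0.14 over all tested genes. The cap was then 0.16 above all genes, as with TMM. A change of scaling moves all genes nearly alike, so this gap could hardly differ. Over the cap genes 13 of 22 were higher in all 3 pairs and 3 were lower in all 3, while 6 of 19 core genes were higher and 8 lower in all 3. Without the immune and thymic type, which had few counts, 5 of 15 core genes were higher and 5 lower in all 3. Among all tested genes 25.7% were higher and 27.4% lower in all 3 pairs. No test was made of core against cap.

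Markers of muscle, liver, neurons and leukocytes were detected, apart from gap43 and mhc2dab, which were listed at 0 in every library, and of the germ line genes zp2.1 was at 0 in 5 of 6 libraries. With the block 8 of 12 skeletal muscle, 3 of 5 liver and 3 of 4 neuron markers rose and 0 fell, and of 9 leukocyte markers 2 rose and 1 fell. Without it 0 markers passed in edgeR. The summed level of the muscle markers was 34183, 34200 and 57479 CPM in nucleotide libraries 1 to 3, against 30128, 27782 and 35382 CPM in control libraries 1 to 3, so nucleotide library 3 stood apart. The part of these markers in the proteasome results was not tested. In whole embryos a change in the share of a cell type and a change in RNA per cell cannot be told apart.

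**Figure D1:**
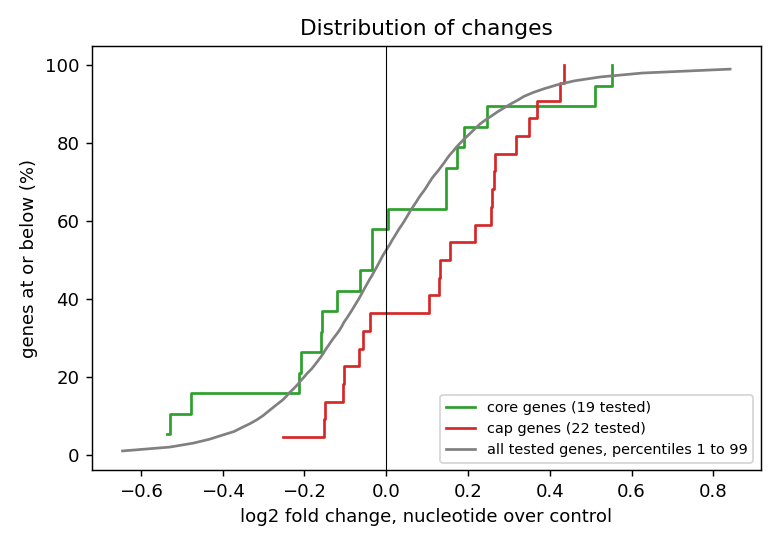
Cumulative share of genes (vertical axis, percent) at or below a log2 fold change of nucleotide over control (horizontal axis) for 22 tested cap genes, 19 tested core genes and all tested genes (percentiles 1 to 99). The cap curve lies to the right of the others over most of its length, with a median of 0.14, while the core median of -0.03 is near that of all genes.

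A ratio of counts within a library does not depend on how libraries are scaled. The summed counts of the 23 cap genes were 1.47, 1.42 and 1.47 times those of the 20 core genes in nucleotide libraries 1 to 3, against 1.33, 1.34 and 1.32 times in control libraries 1 to 3. The lowest nucleotide library thus lay above the highest control library. The mean ratio was 1.45 ± 0.0243 in nucleotide and 1.33 ± 0.00604 in control libraries (SD, n = 3 each), which is 1.09 times as high. With psma1 left out of the core sum the ratio averaged 1.59 ± 0.0321 in nucleotide and 1.52 ± 0.0170 in control libraries. It was then only 1.05 times as high, and the groups still did not overlap (lowest nucleotide 1.56, highest control 1.53). Between 3 and 3 libraries 21.4% of all tested genes had no overlap either.

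The split was wider for the ATPase ring alone. Counts of its 7 genes were 0.557, 0.556 and 0.556 times the core sum in nucleotide libraries 1 to 3, and 0.442, 0.466 and 0.476 times in control libraries 1 to 3. The nucleotide values lay close together (0.556 ± 0.000314, SD, n = 3) and above all of the control values (0.461 ± 0.0171, SD, n = 3), 1.21 times as high. With psma1 left out of the core sum the nucleotide values were less close (0.609 ± 0.00544, SD, n = 3). They were then 1.16 times as high as the control values (0.525 ± 0.0153, SD, n = 3), still without overlap. For the lid genes the ratio to the full core sum averaged 0.533 ± 0.0279 in nucleotide and 0.515 ± 0.00633 in control libraries, and the groups overlapped. These ratios are descriptions of summed counts, in which highly counted genes weigh most, and were given no test.

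**Figure D2:**
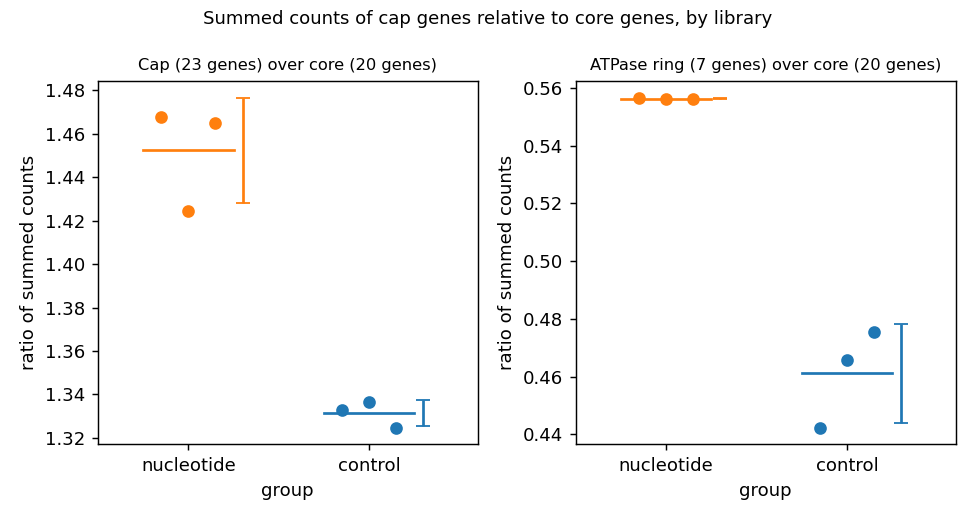
Ratio of summed counts (vertical axis) of the 23 cap genes (left panel) and the 7 ATPase ring genes (right panel) to the 20 core genes, by group; points are libraries, lines are means and error bars are SD (n = 3 each), and the vertical axes do not start at 0. The cap ratio is 1.42 to 1.47 in nucleotide and 1.32 to 1.34 in control libraries, and the ATPase ratio is 0.556 to 0.557 in nucleotide and 0.442 to 0.476 in control libraries.

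Within the alpha ring, the gate through which substrates enter the barrel, the largest fall and the largest rise among all proteasome genes that passed stood side by side. psma1 (NCBI gene 445033) was at 157, 167 and 149 CPM in nucleotide libraries 1 to 3, against 235, 240.0 and 206 CPM in control libraries 1 to 3. The groups did not overlap, and the gene fell by 0.53 ± 0.0638 on the log2 scale (SE, adjusted p = 0.000248 with the block and 0.066 without it). psma2 (554153, now psma2a) was at 56.7, 71.3 and 73.2 CPM in nucleotide pools and at 45.0, 46.7 and 45.3 CPM in control pools. Each nucleotide pool was above all of the control pools, and the gene rose by 0.54 ± 0.0770 (SE, adjusted p = 0.000744 with the block and 0.0764 without it). Without nucleotide library 1 psma2 passed in the fit without the block as well (0.67, adjusted p = 0.0422). The counts of psma2 relative to psma1 in the same library were 0.362, 0.427 and 0.492 in nucleotide and 0.192, 0.195 and 0.220 in control libraries, a mean ratio 2.11 times as high in nucleotide pools. Both genes were picked as the largest fall and rise in these same libraries, so a wide split of their ratio follows from that choice.

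The other alpha ring genes changed less. psma8 (406445, also called psma7) was at 175, 200.2 and 207 CPM in nucleotide and 161, 171 and 158 CPM in control pools, with no overlap. It rose by 0.24 ± 0.0698 (SE, adjusted p = 0.0305), and without pair 2 or 3 its adjusted p was 0.0874 or 0.111. psma4 (326687) also had no overlap, with 110.2 to 126 CPM in nucleotide and at most 109 CPM in control pools, but did not pass (0.17, adjusted p = 0.103). psma3 and psma5 had log2 fold changes of 0.15 and 0.00. psma6a (171585) and psma6b (83917, now psma6l), both genes for the alpha 6 type, had -0.16 and -0.03 and overlapped between the groups. psma6b stood out by its differences between pools: it was at 5.20, 9.62 and 6.94 CPM in nucleotide libraries 1 to 3 and at 4.99, 9.59 and 7.73 CPM in control libraries 1 to 3, so that library 2 was highest and library 1 lowest in both groups.

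**Figure D3:**
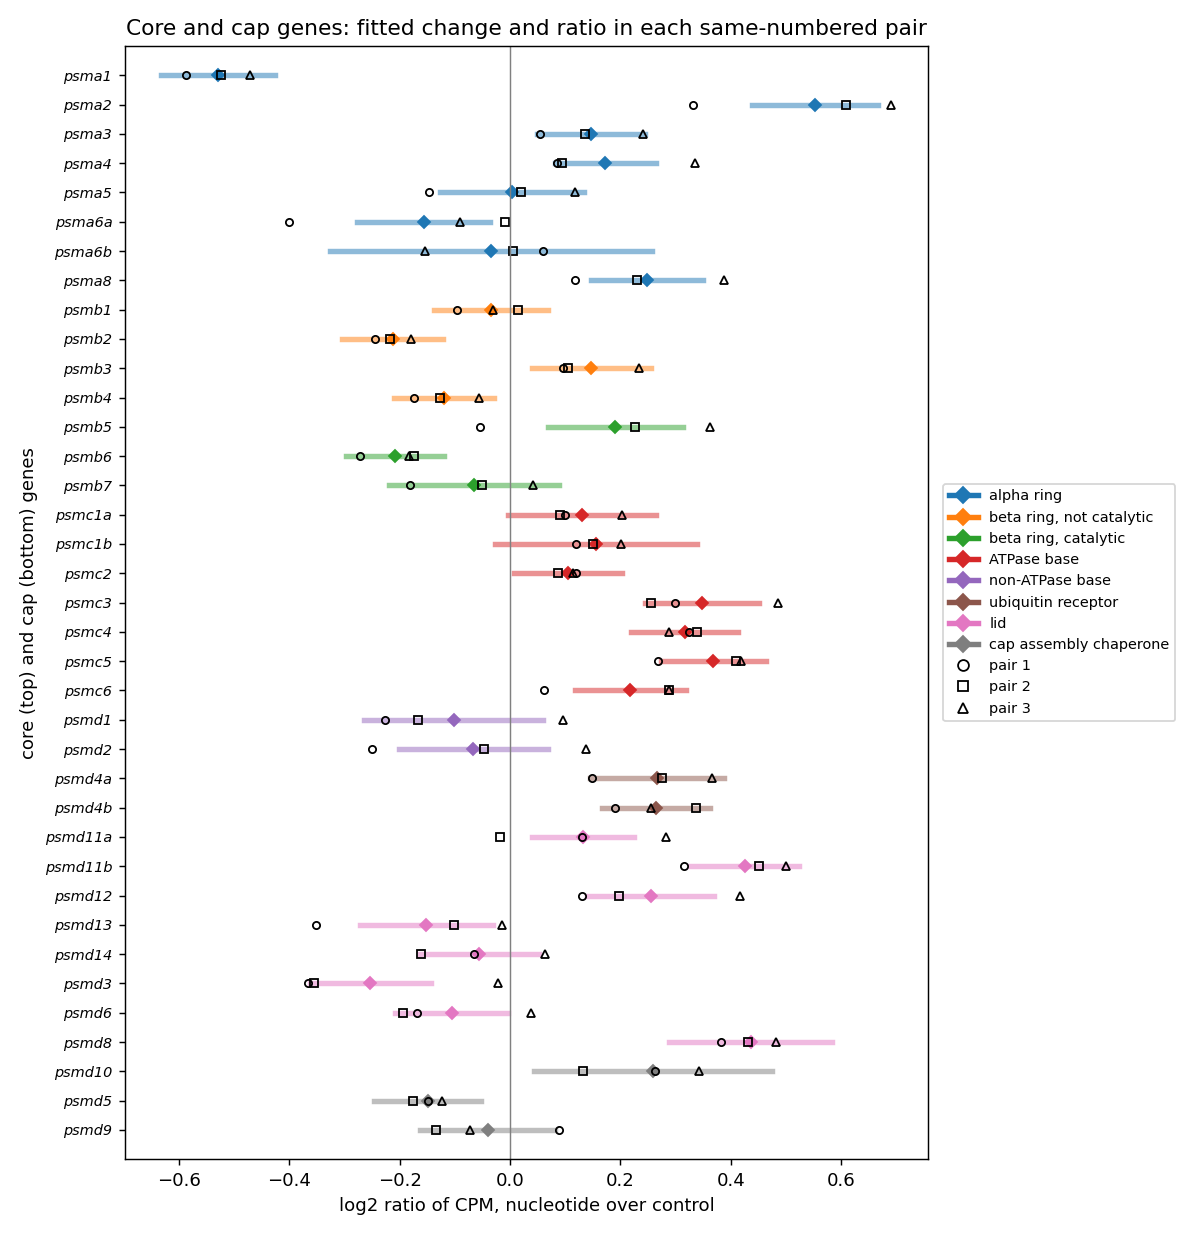
Fitted log2 fold change of nucleotide over control (diamonds, horizontal axis; bars are ± 1 SE of the fit without the block) and the log2 CPM ratio in each same-numbered pair (open symbols) for tested core genes other than the immune and thymic type and for tested cap genes (rows, coloured by role). psma1 lies near -0.53 and psma2 near 0.55, and all 7 ATPase ring genes lie to the right of 0 in all 3 pairs.

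The beta ring genes that do not cut peptides, psmb1 to psmb4, had log2 fold changes of -0.03, -0.21, 0.15 and -0.12. Of these psmb2 (436882) fell, with 80.6, 91.2 and 86.8 CPM in nucleotide against 95.4, 106 and 98.3 CPM in control pools. Its highest nucleotide pool was below its lowest control pool (-0.21 ± 0.0602 SE, adjusted p = 0.0290), and it passed with 1 pair left out only when that pair was the third (0.127 without pair 1, 0.128 without pair 2 and 0.0483 without pair 3).

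The catalytic genes did not move as a group. psmb6 (30388), the beta 1 subunit, which cuts after acidic residues, was at 88.2, 99.2 and 99.5 CPM in nucleotide and 107, 112 and 113 CPM in control pools. The groups did not overlap and it fell by 0.21 ± 0.0609 (SE, adjusted p = 0.0328), a call lost without any single pair (0.180 without pair 1, 0.0985 without pair 2 and 0.0585 without pair 3). psmb5 (30387), the beta 5 subunit with chymotrypsin-like activity, was at 72.0, 89.7 and 98.7 CPM in nucleotide and 74.7, 76.6 and 76.7 CPM in control pools. The first nucleotide pool was below all of the control pools and the others were above them, and the gene did not pass (0.18 ± 0.0787 SE, adjusted p = 0.135). Without pair 1 it had an adjusted p of 0.00669 (0.31). psmb7 (64278), the beta 2 subunit with trypsin-like activity, was at 218, 285 and 223 CPM in nucleotide and 248, 295 and 216 CPM in control pools, and the groups overlapped throughout (-0.06, adjusted p = 0.554).

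The 4 tested beta genes grouped here as the immune and thymic type had few counts and were highest in library 2 of both groups. The group name follows the listed symbols, and no role in the thymus is shown for these genes. The table lists them as psmb8 (30666), psmb9a (30665), psmb10 (64280) and psmb11 (64279), whose present names are psmb8a, psmb9a, psmb13a and psmb12. In the present annotation they are neighbours whose spans overlap, so their counts are uncertain. The limit is not theirs alone, as 15 of all 52 proteasome genes have a span there that overlaps another gene. Among the 15 are psmd8 and psme2, described below, and the effect of such overlap on the counts was not tested. psmb8 had 30, 71 and 20 counts in nucleotide libraries 1 to 3 and 30, 58 and 21 in control libraries 1 to 3. psmb9a had 13, 39 and 21 counts in nucleotide and 5, 25 and 11 in control libraries. Both encode subunits that replace a catalytic one in mammalian immune cells. psmb10 had 23, 40 and 6 counts in nucleotide and 23, 37 and 18 in control libraries. psmb11 had 13, 36 and 19 counts in nucleotide and 16, 43 and 20 in control libraries.

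None of these 4 genes passed between the groups, with or without the block. In the order psmb8, psmb9a, psmb10 and psmb11 the log2 fold changes without the block were -0.16, 0.51, -0.48 and -0.54. Their SE were 0.616, 0.682, 0.649 and 0.582 without the block and 0.253, 0.358, 0.351 and 0.305 with it. The groups overlapped in each gene, though psmb9a was higher in all 3 pairs and the other 3 genes were lower in all 3. In CPM, library 2 of the nucleotide group was 2.60 (psmb11) to 3.28 (psmb8) times the mean of libraries 1 and 3, and library 2 of the control group was 2.21 (psmb10) to 3.85 (psmb9a) times that mean. The other 46 tested proteasome genes had medians of 1.06 in nucleotide and 1.07 in control libraries for the same ratio, and highest values of 1.58 and 1.51. A test of the number term in the blocked fit gave adjusted p of 0.00184 for psmb8, 0.0112 for psmb9a, 0.0178 for psmb10 and 0.0107 for psmb11, where 25.9% of all tested genes passed. The pairing was itself read from these counts and the genes are neighbours, so the 4 values are not independent. Library 2 was the highest in both groups for 25 of the 50 tested proteasome genes and for 20.3% of all tested genes.

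**Figure D4:**
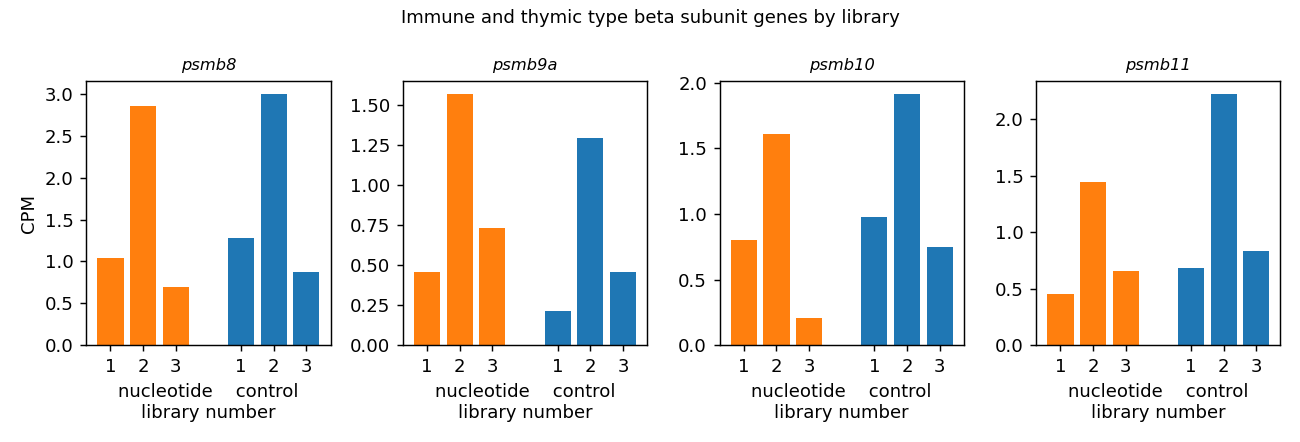
CPM (vertical axes, each from 0 and scaled separately) of 4 immune and thymic type beta subunit genes in nucleotide libraries 1 to 3 (orange, left) and control libraries 1 to 3 (blue, right). Library 2 is the highest of its group in all 4 genes and in both groups, for psmb8 at 2.86 CPM in nucleotide and 3.01 CPM in control libraries.

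Of 9 leukocyte markers with counts, 4 were highest in library 2 of both groups, as were 20.3% of all tested genes. These were the antigen presentation genes cd74a, cd74b and b2m and the actin-bundling gene lcp1. Both lyz and mpx were highest in library 1 of both groups, and coro1a, spi1b and csf1ra in different libraries of the 2 groups. The neuron gene snap25a and the germ line gene nanos3 were highest in library 2 of both groups, and 0 of 12 muscle and 0 of 5 liver markers were. cd74b was at 10.0, 15.6 and 8.19 CPM in nucleotide libraries 1 to 3 and at 5.92, 11.8 and 7.73 CPM in control libraries 1 to 3. b2m was at 7.89, 9.02 and 7.01 CPM in nucleotide and at 5.50, 9.69 and 6.06 CPM in control libraries. The part of leukocytes in the immune type values was not tested. The sum over the leukocyte markers was highest in library 1 of both groups. It was 490, 419 and 270 CPM in nucleotide libraries 1 to 3 and 597, 405 and 254 CPM in control libraries 1 to 3, and the neutrophil gene mpx was the largest part of it in libraries 1 and 2 of both groups. mhc2dab was listed at 0 in every library. The fifth gene of the immune and thymic type, psmb11b (100331481), had at most 3 counts in a library and was not tested.

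In the cap, the ATPase genes all lay on the same side. All 7 psmc genes for its subunits were higher in all 3 pairs, with log2 fold changes between 0.11 and 0.37 and a median of 0.22, against -0.01 over all genes. Under library totals in place of TMM, which moved the median of all genes to -0.14, psmc2 turned to -0.02 and the other 6 stayed above 0. All 7 were above the median of all genes under each scaling tried. Scaling moves all genes nearly alike, so this could hardly have turned out otherwise. Without nucleotide library 2, 6 of the 7 were above 0, and in every other omission of a library all 7 were.

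psmc3, psmc4, psmc5 and psmc6 rose. psmc5 (445285) was at 151, 172 and 175 CPM in nucleotide pools and at 126, 129.7 and 131 CPM in control pools. The lowest nucleotide pool was above the highest control pool, and the gene rose by 0.37 ± 0.0642 (SE, adjusted p = 0.00281 with the block and 0.141 without it). psmc3 (321947) was at 145, 160.0 and 172 CPM in nucleotide and at 118, 134 and 123 CPM in control pools. psmc4 (326884) was at 168, 185 and 187 CPM in nucleotide and at 134, 146 and 154 CPM in control pools. Neither overlapped between the groups, and they rose by 0.35 ± 0.0675 and 0.32 ± 0.0617 (SE, adjusted p = 0.00499 and 0.00503). psmc6 (321585) was at 105, 128 and 125 CPM in nucleotide and at 101, 105 and 102 CPM in control pools, a rise of 0.21 ± 0.0675 (SE, adjusted p = 0.0463). Its first nucleotide pool exceeded the highest control pool by less than 1 CPM, and its call held without pair 1 but had an adjusted p of 0.234 without pair 2 and 0.160 without pair 3.

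The other 3 ATPase genes did not pass. psmc2 (393941) was at 141, 159 and 147 CPM in nucleotide and 129.8, 149 and 136 CPM in control pools (0.11, adjusted p = 0.246). psmc1a (336786) and psmc1b (415181), copies of the same subunit gene, had 0.13 and 0.16 (adjusted p = 0.160 and 0.0955). psmc1b was at 115, 164 and 119.6 CPM in nucleotide and 106, 147 and 104 CPM in control pools, so library 2 was far above the others in both groups while each nucleotide pool exceeded the control pool of its number. Reads shared between the copies cannot be assigned with certainty, since the sources do not say how such reads were counted.

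**Figure D5:**
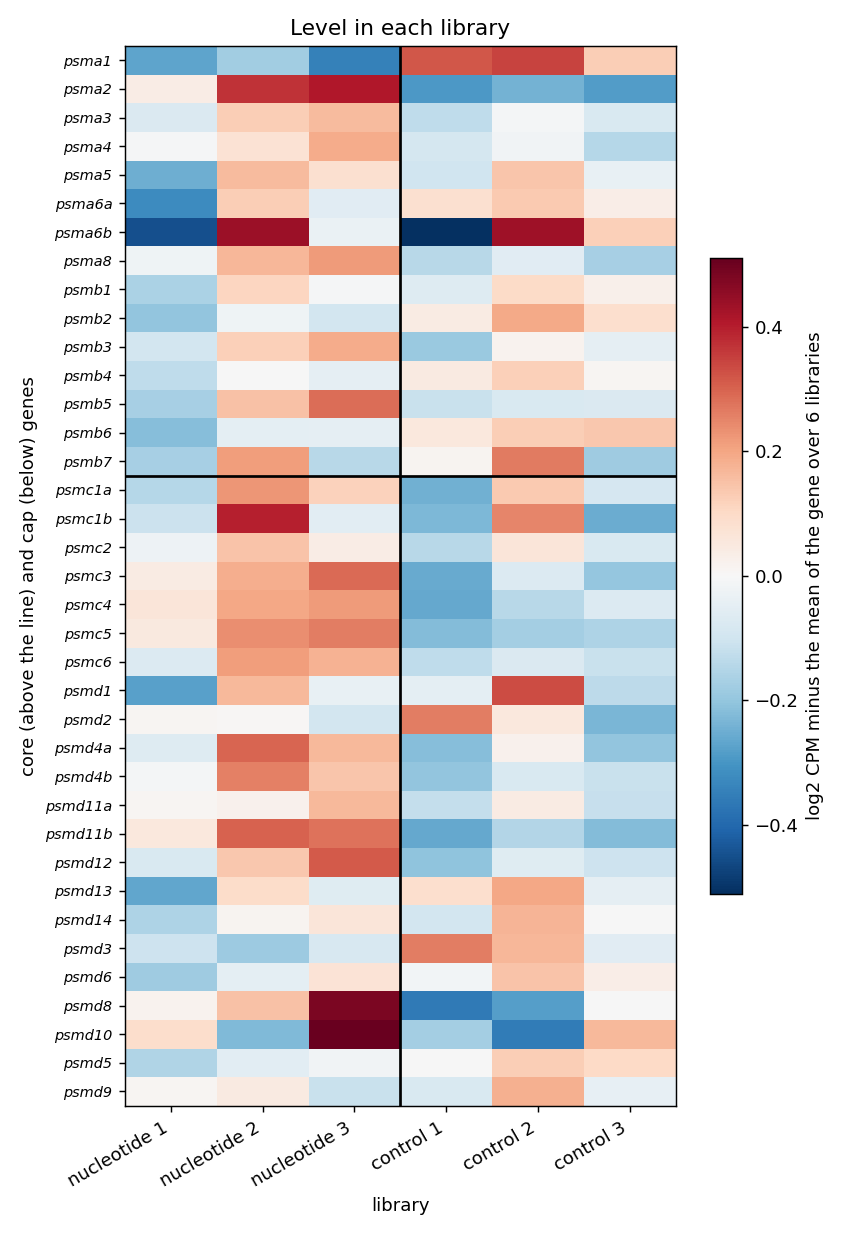
Level of tested core genes other than the immune and thymic type (above the line) and cap genes (below it) in each library, as log2 CPM minus the mean of the gene over 6 libraries, with red for higher and blue for lower; nucleotide libraries are on the left and control libraries on the right. psmc3, psmc4, psmc5 and psmd11b are higher in all 3 nucleotide libraries than in any control library, psma1 is lower, and psma6b, psmc1b and psmb7 are high in library 2 of both groups.

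The other base subunits did not all follow the ATPases. psmd1 (554967) and psmd2 (393518), the large scaffolds of the base, had -0.10 and -0.07 and overlapped between the groups. psmd2 was at 239, 238 and 222 CPM in nucleotide and at 284, 246 and 202 CPM in control pools. The copies psmd4a (415202) and psmd4b (550287), which encode a ubiquitin receptor of the cap, both rose. psmd4a was at 67.2, 86.5 and 78.9 CPM in nucleotide and at 60.6, 71.5 and 61.2 CPM in control pools, where the first nucleotide pool lay below the second control pool. psmd4b was at 80.0, 96.4 and 88.9 CPM in nucleotide and at 70.1, 76.3 and 74.5 CPM in control pools, without overlap. Each rose by 0.26 (SE 0.0659 and 0.0625, adjusted p = 0.0175 and 0.0143). psmd4a was lost without pair 2 (0.0501) or 3 (0.0736) and psmd4b without pair 2 (0.0995).

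The lid held the largest rises of the cap beside genes that were lower. psmd8 (415221), a structural lid subunit, was at 84.5, 92.4 and 116 CPM in nucleotide and at 64.9, 68.6 and 83.2 CPM in control pools. Within each pair the nucleotide pool was higher, and the lowest of them was just above the highest control pool (0.43 ± 0.0613 SE, adjusted p = 0.000766 with the block and 0.233 without it). psmd11b (322265), also structural, was at 100.2, 119 and 117 CPM in nucleotide and at 80.6, 87.2 and 82.8 CPM in control pools, a rise of 0.42 ± 0.0640 (SE, adjusted p = 0.00117 with the block and 0.107 without it). Its copy psmd11a (503934) was at 66.6 to 74.1 CPM in nucleotide and 60.8 to 68.0 CPM in control pools and did not pass (0.13, adjusted p = 0.212). psmd12 (321898) was at 95.0, 110.1 and 124 CPM in nucleotide and at 86.8, 96.1 and 93.2 CPM in control pools. Its lowest nucleotide pool lay below its highest control pool, and it rose by 0.25 ± 0.0695 (SE, adjusted p = 0.0281, and 0.135 without pair 3).

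psmd3 (393544), a lid subunit, was the cap gene that fell. It was at 174, 165 and 177 CPM in nucleotide and at 225, 211 and 180.1 CPM in control pools, with no overlap, though nucleotide library 3 was close to control library 3. It fell by 0.25 ± 0.0776 (SE, adjusted p = 0.0443), a call that was lost without pair 1 (0.185) or 2 (0.224). psmd14 (799058), the enzyme that cuts ubiquitin chains from the substrate, was at 116, 130.5 and 135 CPM in nucleotide and at 121, 146 and 129 CPM in control pools, and the groups overlapped (-0.05, adjusted p = 0.605). psmd6 and psmd13 had -0.11 and -0.15 and did not pass. psmd7 (327330), a lid subunit, was listed at 0 in all 6 libraries and could not be tested. Whether this 0 comes from the annotation or the counting was not tested, so it does not show that the gene was silent. The gene is among the 23 cap genes of the ratios, where it adds 0 counts.

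Of the 16 genes that passed with the block, 7 also passed with each of the 3 pairs left out, namely psma1, psma2, psmc3, psmc4, psmc5, psmd8 and psmd11b. All 16 kept their sign under each scaling, with DESeq2 and with each library or pair left out. All but psmd4a and psmd12 had no overlap between the groups, as had 36% of the 50 tested proteasome genes (11 higher and 7 lower) and 21.4% of all tested genes (11.5% higher and 9.89% lower). The tested proteasome genes had a smaller median SE than all tested genes, so the shares without overlap are not like for like either. The 16 were picked by the blocked fit of these same libraries, so their stable signs and lack of overlap are not independent of that choice.

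Of the 11 tested chaperone, activator and inhibitor genes 1 rose, psme2, and 10 did not pass. psmd5, psmd9 and psmd10, which help to build the cap base and leave it afterwards, had -0.15, -0.04 and 0.26, and none passed. Of the chaperones of the core, psmg1, psmg2 and psmg3 had -0.19, 0.10 and -0.25. psmg3 (436802) was at 29.5, 29.7 and 27.8 CPM in nucleotide and 32.4, 32.6 and 38.6 CPM in control pools, with no overlap, and did not pass with all pairs (adjusted p = 0.0643). It passed without pair 1 (0.0303) and without pair 2 (0.0398), and not without pair 3 (0.337). Among the activators, which open the core without the cap, psme2 (30647), the beta subunit of the PA28 ring, rose. It was at 25.7, 29.2 and 30.1 CPM in nucleotide and at 18.2, 25.5 and 23.5 CPM in control pools, and the lowest nucleotide pool was just above the highest control pool (0.35 ± 0.0856 SE, adjusted p = 0.0157, and 0.0707 without pair 3). Its partner psme1 (30648) was at 18.1, 18.2 and 17.8 CPM in nucleotide and 14.1, 22.9 and 19.8 CPM in control pools, where the nucleotide pools lay close together inside the spread of the control pools (-0.05, adjusted p = 0.827). psme3, psme4b and the inhibitor gene psmf1 had 0.11, -0.06 and -0.03, and psmc3ip had 0.18, none of which passed.

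Of 31 further genes of the pathway that were matched in the table, 4 rose, 2 fell and 25 did not pass with the block, a share near that of all tested genes (19.1%). Without the block edgeR called 0 of them, against 0.99% of all tested genes. At an unadjusted p below 0.05 5 of the 31 passed, where 14.5% of all tested genes did. DESeq2 called 1 of the 31, shfm1, against 3.79% of all genes. shfm1 (322269, now sem1), the small lid subunit that holds the cap together during assembly, was at 131, 129 and 116 CPM in nucleotide and at 95.5, 96.9 and 86.0 CPM in control pools. The groups were well apart, and it rose by 0.43 ± 0.0600 (SE, adjusted p = 0.000676 with the block and 0.0955 without it). The other rises were vcp (327197), the ATPase that pulls tagged proteins out of complexes and membranes, by 0.36, its cofactor ubxn4 by 0.36, and uchl5, a deubiquitinase bound to the cap, by 0.29 (adjusted p = 0.00831, 0.00518 and 0.0231). vcp was at 416, 476 and 446 CPM in nucleotide and at 349.8, 396 and 299 CPM in control pools, without overlap. Other vcp cofactors on the list did not pass, namely nploc4 (0.02), ufd1l (-0.000234), faf1 (0.02), faf2 (-0.16), ubxn1 (0.20) and ubxn7 (-0.08). The uchl5 call was lost without pair 1 (0.0714) or 3 (0.0771).

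zfand2a, a ubiquitin-binding protein gene that responds to protein stress in mammals, and akirin2, needed in human cells to bring proteasomes into the nucleus, fell by 0.28 and 0.24 (adjusted p = 0.0186 and 0.0297). These calls were lost without pair 3 (0.0894 for zfand2a and 0.0766 for akirin2), and that of akirin2 also without pair 2 (0.228). nfe2l1a (405781) is an orthologue of the mammalian transcription factor gene NFE2L1, whose product raises the expression of proteasome genes when the proteasome is blocked. It was at 139.5, 168 and 159 CPM in nucleotide and 145, 171 and 161 CPM in control pools, each nucleotide pool lying just below the control pool of its number (-0.04, adjusted p = 0.726). Its copy nfe2l1b had 0.03, the ubiquitin receptor adrm1 0.10, the core maturation factor pomp 0.12 and the cap-bound deubiquitinase usp14 -0.02, and none passed.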

How the data were processed

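The authors deposited whole-number read counts per gene for 6 libraries, not normalized, in a table of 14681 rows. Per the submitters' processing notes, TopHat2, HTSeq and DESeq2 were used with GRCz10 (no versions named). The annotation, strand setting and treatment of reads with several matches were not given in the sources used here. Exposed columns were assigned by library name, which matches the labels. The authors' deposited comparison holds a mean of normalized counts (signal), a log2 fold change with its SE, a score (the Wald statistic) and p-values, raw and adjusted, per the file headers.

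Here 69 rows that repeated a symbol with the same counts were dropped. Counts were filtered with filterByExpr in edgeR 4.0.16 under R 4.3.3 (minimum count 10, minimum total 15), scaled by TMM and tested by the 2-sided quasi-likelihood F test with Benjamini-Hochberg adjustment over 13336 genes at 0.05. Of 52 proteasome genes 50 passed the filter. SE is the absolute log2 change over root F. Blocked values add the replicate number: deviations from group means correlated at 0.546, 0.625 and 0.617 between same-numbered libraries, above a minimum of 0.1, and between -0.403 and -0.232 otherwise. The numbers are those of the sample titles, but the labels state no pairing, which was read from the counts. The numbers in the library names match for pairs 2 and 3 and differ for pair 1. The labels name no clutch of origin, and p-values then reflect only how these pools vary, which may be technical. DESeq2 1.42.0, other scalings, no filter and each library left out were alternatives. The test of the number term and the blocked fit with a pair left out were added after seeing the data. The steps were tested on simulated data. With paired pools 20.9% of 1.5-fold changes were recovered with the block and 0% without it, and with unpaired pools 35.8% without it. The simulated spread was that of the fit without the block, with a pairing term added to the paired pools, so it may exceed that of these data. Of 2-fold changes in paired pools 86.6% were recovered with the block and 19.4% without it. In the simulation a gene that did not pass could thus still differ by 1.5-fold or more. In these data the median SE over the tested proteasome genes was 0.0691 with the block and 0.113 without it. The simulated shares therefore do not set the limit for these genes.

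The members and lists were chosen with earlier results of these data known. Named in full are members past the threshold in a fit, up to 10 a direction with the block, the catalytic, immune type, ATPase, receptor and deubiquitinase genes, and the extremes of core and cap. psma8 and other genes outside this rule were named after their values were seen. The companion list had 42 symbols, of which 10 were not matched, giving 31 genes. Present names and neighbours are from NCBI RefSeq for GRCz12tu, another build than that of the files, so no coordinates are given.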

Additional observations from a re-analysis of the deposited data

How the results depend on the processing

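The count of proteasome genes called depended on the fit. DESeq2 called 3 higher and 1 lower (core 1 and 1, cap 2 higher), 1 companion gene higher, and 398 higher and 96 lower of all genes, against 125 and 7 in edgeR. The replicate block gave 12 higher and 4 lower proteasome genes (core 2 and 3, cap 9 and 1, others 1 higher), 4 and 2 companion genes, and 1432 and 1118 of all genes, and the cause was not tested. The blocked fit without pair 1 gave 13 and 2 (core 3 and 1, cap 9 higher, others 1 and 1, psme2 and psmg3), companions 4 and 2, and 1265 and 870 of all genes. Without pair 2 it gave 8 and 2 (core 1 and 1, cap 6 higher, others 1 and 1), companions 4 and 1, and 1150 and 862. Without pair 3 it gave 7 and 3 (core 1 and 2, cap 6 and 1), companions 3 higher, and 1010 and 661.

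Without the block, leaving out 1 library gave 0 to 1 higher proteasome genes (core 0 to 1), and 39 to 79 higher and 0 to 2 lower of all genes. The single call was psma2 without nucleotide library 1. Library totals gave 18 and the upper quartile 11 lower among all genes. With 1 library left out the core median ranged from -0.15 (without nucleotide library 2) to 0.15 (without control library 2), and the cap median from 0.09 to 0.25. The core median of 0.15 was the value of psmb11, a gene with few counts. Library totals, which put the median of all genes at -0.14, gave -0.16 for the core and 0.02 for the cap. None of 56 named genes was called in edgeR without the block, so no call of that fit could reverse. None was called under an alternative with the opposite sign to that fit. With 3 pools a group, and 6 to 71 counts per library for the 4 tested immune type genes in the nucleotide group, only large differences in those genes could have been detected.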
